A study of Arabidopsis thaliana with 3 samples.

Results

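SPL genes encode the SQUAMOSA PROMOTER BINDING PROTEIN-LIKE transcription factors of Arabidopsis thaliana, and the data described here are the sites recovered with tagged JMJ28 in and around 10 of them. These were SPL1, SPL2, SPL3, SPL4, SPL5, SPL7, SPL8, SPL9, SPL10 and SPL11, 10 of the 27444 protein-coding genes on the nuclear chromosomes. A peak summit, the position of strongest signal within a called peak, was taken as belonging to a gene when it lay inside the gene or within 1000 bp of either end. By this rule 11 of the 18368 nuclear summits belonged to the 10 genes.

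SPL proteins share the SBP domain, a zinc-binding DNA-binding fold specific to green plants. Many SPL transcripts are targets of the microRNA miR156, which is abundant in young seedlings and declines as the plant ages, so that SPL activity rises and drives the change from juvenile to adult leaves and the competence to flower. Not every family member belongs to this age pathway: SPL1, SPL7 and SPL8 have no miR156 site, and SPL7 is best known as the regulator of the copper deficiency response.

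All libraries came from Col-0 seedlings carrying JMJ28pro::JMJ28:3xFLAG, a transgene in which the JMJ28 promoter drives JMJ28 with a FLAG tag. JMJ28 belongs to the KDM3 type of JmjC histone demethylases, enzymes that act on methylated lysine 9 of histone H3. Plants were grown in long days at 22 °C and harvested at 14 days. Per the labels there were 2 ChIP libraries, made as biological replicates, and 1 input; the values come from a single summit list with a score for each summit. The score is the authors' own −log10 of a p-value or q-value, a measure of evidence for a peak and not an amount of bound protein. Values per library, read depth and untagged plants were not analysed here. No spread between replicates can therefore be given, no test was made, and JMJ28 sites cannot be told apart from chromatin that the antibody recovers on its own. Whether the transgene was in a wild-type or a mutant plant is not given in the sources used here.

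JMJ28 summits were present at 7 of the 10 SPL genes (70.0%), which is near the 65.4% of all nuclear protein-coding genes with a summit by the same rule. SPL1, SPL3, SPL5, SPL7, SPL9, SPL10 and SPL11 had a summit, and SPL2, SPL4 and SPL8 had none. Inside the gene itself 6 of the 10 had a summit, against 47.7% of all protein-coding genes, since the summit of SPL5 lay outside it. The best scores were moderate. Their median over the 7 genes was 12.9, against 13.6 over all protein-coding genes with a summit, and the highest was 32.9.

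**Figure D1:**
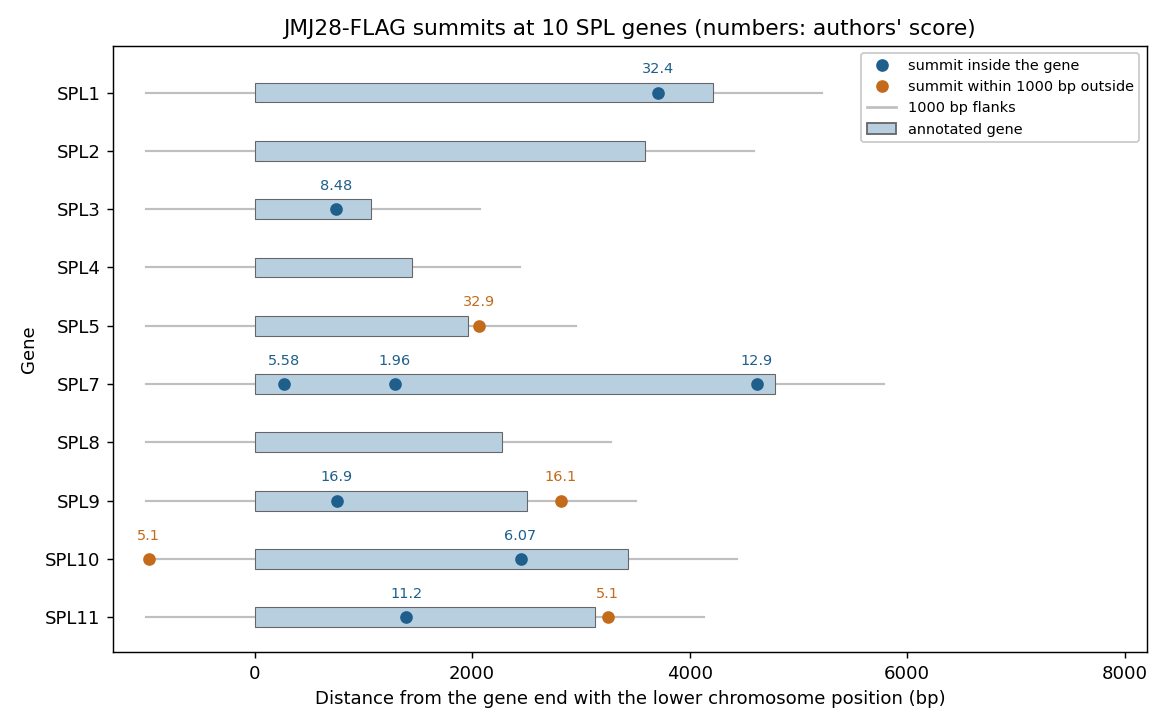
The 10 SPL genes drawn to scale from the end with the lower chromosome position, with distance in bp on the horizontal axis; blue points are summits inside the gene, orange points summits within 1000 bp outside, and the numbers are the authors' scores. Of the 11 summits 8 were inside a gene, and SPL2, SPL4 and SPL8 carried none; the summit between SPL11 and SPL10 is drawn at both.

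SPL3, SPL4 and SPL5 encode the small SPL proteins, little more than the SBP domain, that promote floral meristem identity and are under strong miR156 control. Within this closely related trio the summits were uneven, with a summit at SPL3 and SPL5 and none at SPL4. SPL3 (AT2G33810) had 1 summit, at position 14305754 of chromosome 2 (TAIR10). It was inside the gene, 318 bp from the nearer end, with a score of 8.48. That score equalled or exceeded 48.5% of nuclear summits. SPL3 is the shortest of the 10 genes at 1072 bp. In its length decile 44.3% of protein-coding genes had a summit, so most genes of its length had none. A long noncoding RNA gene, AT2G33815, is annotated over 97.6% of SPL3, and its extent contains the same summit.

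SPL5 (AT3G15270) had a summit at position 5142429 of chromosome 3, 106 bp outside the gene, with a score of 32.9, the highest of the 11. SPL5 lies entirely within the annotated extent of another protein-coding gene, AT3G15260, which is 4190 bp long, and this summit is inside AT3G15260. The summit can therefore not be assigned to SPL5 alone, and it was lost to SPL5 when each summit counted only for its nearest gene, a rule under which 6 of the 10 SPL genes and 51.3% of all protein-coding genes had a summit. A further summit inside AT3G15260 lay 1126 bp from the opposite end of SPL5 and scored 12.9. SPL4 (AT1G53160) had no summit within 1000 bp. Its nearest was 6906 bp away at position 19799357 of chromosome 1, inside the dynamin-related gene DRP5A, with a score of 8.77. The table also places a microRNA gene, MIR156i, inside SPL4, 7560 bp from the same summit.

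SPL9 acts in the change from juvenile to adult leaves and in flowering, and its protein activates a gene for miR172. SPL9 (AT2G42200) had 2 summits of similar score. The first, at position 17587923 of chromosome 2, was inside the gene, 754 bp from the nearer end, and scored 16.9. The second, at position 17589983, was 312 bp outside the gene and scored 16.1. This second summit was nearer to the neighbouring gene OEP16-3, at 86 bp, so only the first counts for SPL9 under nearest-gene assignment. SPL9 is thus the age-pathway member of the 10 with the highest score inside the gene itself. A microRNA gene annotated within SPL9, MIR156j, was 896 bp from the second summit.

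SPL2, SPL10 and SPL11 are close relatives with overlapping roles in the shape of lateral organs. SPL10 and SPL11 lie side by side on chromosome 1, separated by 1088 bp. The summit inside SPL11 (AT1G27360), at position 9502285, scored 11.2. The summit inside SPL10 (AT1G27370), at position 9507558, scored 6.07. Both were deep in the gene, 1393 bp and 984 bp from the nearer end. A weaker summit in the interval between them, at position 9504139, scored 5.10. It was 116 bp from SPL11 and 973 bp from SPL10, so it was shared by both under the 1000 bp rule and belonged to SPL11 by distance. SPL10 had the lowest best score of the 7 genes, at or above that of only 19.0% of protein-coding genes with a summit.

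SPL2 (AT5G43270), the third of this trio, had no summit. Its nearest was 2411 bp away at position 17357876 of chromosome 5, inside AT5G43260, and scored 5.10. SPL2 is 3594 bp long, and 79.3% of protein-coding genes of its length decile had a summit. This share was higher than for SPL8 (72.9%) and SPL4 (55.4%), the other members without a summit.

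The members outside miR156 control ranged from a strong single summit to none. SPL1 (AT2G47070), a large SPL protein with ankyrin repeats that acts with SPL12 in thermotolerance, had 1 summit. It lay at position 19340360 of chromosome 2, within the gene and 509 bp from the nearer end, and its score of 32.4 was the highest of any summit inside the 10 genes. It equalled or exceeded 88.0% of nuclear summits.

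SPL7 (AT5G18830), the regulator of copper homeostasis and the longest of the 10 genes at 4787 bp, had 3 summits, all inside it. Those at positions 6276170 and 6280513 of chromosome 5 lay near the opposite gene ends, at 275 bp and 168 bp, and scored 5.58 and 12.9. The remaining one, at position 6277185, was 1290 bp from the nearer end and scored 1.96, at or above only 1.13% of nuclear summits. Of all protein-coding genes, of any length, 6.35% had 3 or more summits. The share with 3 or more among genes as long as SPL7 was not computed. In its length decile 83.0% of genes had a summit.

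SPL8 (AT1G02065), which acts in pollen sac development and gibberellin responses, had no summit. Its nearest, at position 362477 of chromosome 1, was 2688 bp away inside AT1G02060 and scored 33.9. The score at that neighbour was thus above every score belonging to the 10 SPL genes.

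Scores of the 11 summits spread over most of the ranks found in the nucleus, except the top. They ran from 1.96 to 32.9, at or above 1.13% and 88.3% of nuclear summits. Their median was 11.2, against 9.07 for all nuclear summits. Of the 11, 6 were at or above the nuclear median and 2, those of SPL1 and SPL5, at or above the 75th percentile of 18.4. Restricted to summits in the upper 50% of scores, 5 of the 10 genes were counted (SPL1, SPL5, SPL7, SPL9 and SPL11), against 43.8% of all protein-coding genes. In the upper 25% only SPL1 and SPL5 were left, 2 of 10, against 25.4%.

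**Figure D2:**
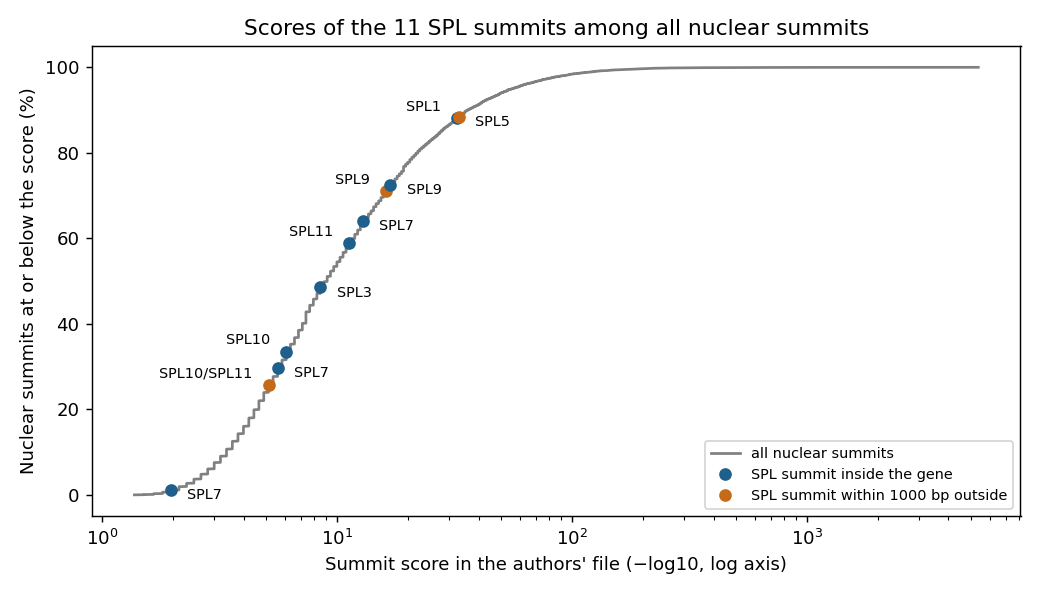
The cumulative share of nuclear summits (vertical axis, %) at or below each score (horizontal axis, −log10, log scale), with the 11 SPL summits marked and named, blue inside the gene and orange within 1000 bp outside. The SPL summits run from 1.96 at SPL7 to 32.9 at SPL5 and none reaches the upper end of the curve.

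Summits inside the 10 SPL genes had a larger median distance from the gene ends than those of all genes. The 8 summits inside were a median of 632 bp from the nearer gene end (168 to 1393 bp), against 295 bp over the 16203 summits inside protein-coding genes. More than 500 bp from the nearer end were 5 of the 8, those of SPL1, SPL9, SPL10 and SPL11 and the weakest of SPL7, against 25.5% of all summits inside genes. The 9 summits inside the other 7 family genes were nearer to the background, with a median of 369 bp and 3 of 9 beyond 500 bp. The SPL genes were also longer, with a median of 2818 bp against 2078 bp for all protein-coding genes, and longer genes allow deeper positions. The part of gene length in this difference was not tested. Strand was not used here, so a transcription start and a transcript end cannot be told apart.

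Among the 10 members, the genes without a summit also had fewer summits around them. Counting summits beyond 1000 bp but within 10 kb of the gene, SPL1, SPL3, SPL5, SPL7, SPL9, SPL10 and SPL11 had 4 or 5 each. SPL2 and SPL4 had 1 each and SPL8 had 2, fewer than any of the 7. The windows of SPL10 and SPL11 hold some of the same summits. Over all protein-coding genes the medians were 4 for the 17953 with a summit and 2 for the 9491 without, and 28.7% and 54.9% of these genes had at most 2. The other family genes did not follow this order: SPL6, with a summit, had 2 such summits, and SPL13A, without, had 4. SPL4 also had few neighbours, with 3 other protein-coding genes within 10 kb, whereas SPL2 and SPL8 had 7 each and the other members 8 or 9. The share of these neighbours with a summit was 8 of 8 at SPL7 and SPL9 and lowest at SPL1, with 5 of 9, among the 7. It was 1 of 7 at SPL2, 3 of 7 at SPL8 and 2 of 3 at SPL4, so it overlapped only through SPL4. The number ran from 5 to 8 at the 7 genes and from 1 to 3 at the others. Among the other family genes the numbers overlapped, with 6 at SPL13A and 2 at SPL14. The same number over all protein-coding genes was not computed.

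The highest scores near the SPL genes mostly belonged to their neighbours. The highest score within 10 kb was 124.5 near SPL9, at position 17592280, inside AT2G42220 and 2609 bp from SPL9. Near SPL10 it was 119, at position 9517292, inside AT1G27410 and 8750 bp from SPL10. Near SPL1 it was 89.2, at position 19344293, inside AT2G47090 and within 1000 bp of the ubiquitin gene UBQ6. Among the 7 genes with a summit, SPL7 alone held the highest score of its surroundings without a tie. The summit by SPL5 was equalled by another of 32.9 inside AT3G15290, 2713 bp from SPL5.

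**Figure D3:**
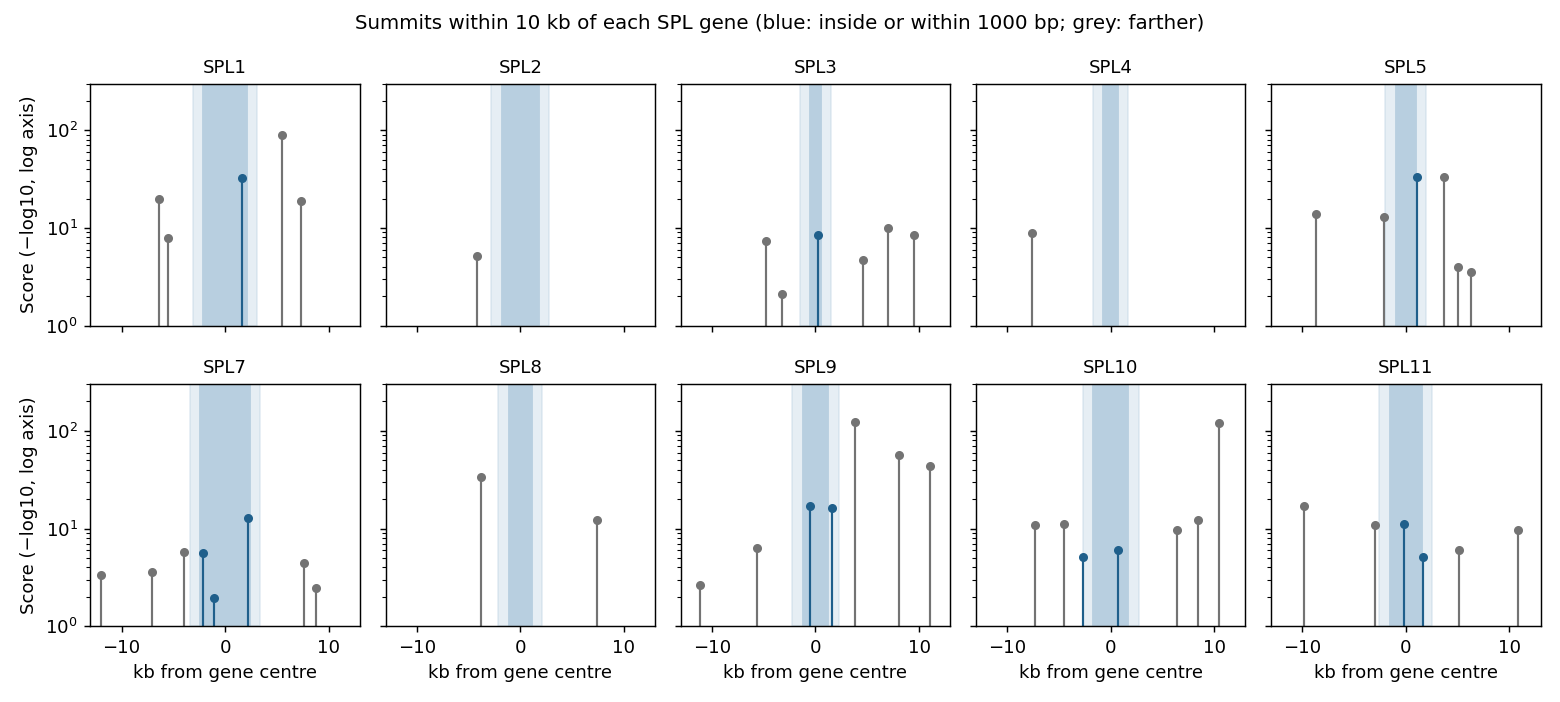
All summits within 10 kb of each SPL gene, by distance from the gene centre in kb (horizontal axis) and score (vertical axis, −log10, log scale); the dark band is the gene, the pale band its 1000 bp flanks, blue marks summits inside or within 1000 bp and grey the others. SPL2, SPL4 and SPL8 have empty bands and 1, 1 and 2 summits around them, and the tallest marks near SPL1, SPL9 and SPL10 are grey.

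Most of the other family genes also had a summit. Of SPL6, SPL12, SPL13A, SPL13B, SPL14, SPL15 and SPL16, 6 of 7 had a summit, against 65.4% of all protein-coding genes. In the length deciles of these 7 genes the share was 69.4% to 83.0%. Inside the gene the same 6 of the 7 had a summit, against 47.7% of all protein-coding genes. The median best score, flanks included, was 11.6. The highest, 15.3, lay 723 bp outside SPL13B and inside SAE1B, and the highest inside a gene was 13.6 (SPL16). The large SPL proteins related to SPL1 all had one: SPL16 had 1 inside (13.6), SPL12 had 1 inside (5.10) and 1 outside (6.84), and SPL14, a gene in which mutants resist a fungal toxin, had 4, all inside, with scores of 5.82 to 11.2. SPL15, the closest relative of SPL9, had 1 summit inside (8.77), but it lies wholly within the extent of AT3G57910, and the summit is shared. SPL6 had 1 inside (11.9), 77 bp from the carpel gene CRC.

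SPL13A and SPL13B are nearly identical copies that can share reads, so the difference between them is uncertain. SPL13B had 1 summit inside (11.96) and 2 outside (4.26 and 15.3), and the nearest to SPL13A was 1003 bp away (10.1), just beyond the limit of 1000 bp. Over all 17 genes, 8 of 11 targets of miR156 (72.7%) had a summit, against 5 of 6 genes that are not targets (83.3%). Among all protein-coding genes the share was 65.4%. It was 44.3% to 79.3% in the length deciles of the targets and 72.9% to 83.0% in those of the others. The part of gene length in this difference was not tested. The median best score was 11.6 for the targets and 12.9 for the others.

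The limit of 1000 bp did not decide which of the 10 members were counted. The summits just within it were those at 973 bp from SPL10 and 312 bp from SPL9, both genes that also had a summit inside. Just beyond it were summits at 1126 bp from SPL5, 1402 bp from SPL11 (10.9) and 1560 bp from SPL7 (5.82), genes already counted. With flanks of 500 bp or 2000 bp the same 7 genes had a summit, while the share of all protein-coding genes was 59.2% and 73.3%.

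Upstream in the age pathway stand the microRNA genes. Of 12 genes for miR156 and the related miR157, 5 had a summit within 1000 bp (41.7%), against 29.8% of the 326 nuclear microRNA genes. MIR156i and MIR156j, annotated inside SPL4 and SPL9, were not in this list, and with them the count was 6 of 14. The summits of the 5 lay outside the short annotated precursor. MIR157D had the highest score (29.6, 820 bp away), followed by MIR156H (8.48, 74 bp), MIR156D (7.64, 803 bp), MIR156B (6.07, 400 bp) and MIR156C (5.10, 516 bp). MIR156A, MIR156E, MIR156F, MIR156G, MIR157A, MIR157B and MIR157C had none, and for MIR156A, a main source of miR156 in seedlings together with MIR156C, the nearest summit was 15890 bp away.

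Nearly all genes of the lists of miR156 regulators and of the small RNA machinery had a summit. Of 12 regulators of miR156 genes, mostly chromatin proteins, 11 had a summit, against 65.4% of protein-coding genes. CLF, a Polycomb H3K27 methyltransferase, had the highest score (90.6, 78 bp outside). Next were the B3-domain repressor VAL2 (32.4), the MADS-box protein gene AGL15 (23.3) and the chromatin remodellers PKL (17.2) and BRM (15.4). ARP6, a subunit of the complex that deposits H2A.Z, followed with 11.2 outside the gene and 6.84 inside. AGL18, BMI1A, HXK1, SWN and VAL1 also had one, and BMI1B had none. The small RNA machinery had a summit in 7 of 7 cases. HYL1, the double-stranded RNA-binding partner of DCL1, scored 94.7 outside the gene and 52.0 inside. DCL1, the enzyme that cuts microRNA precursors, scored 48.6 outside and 19.2 inside, and SE, their zinc finger partner, 23.7. SQN scored 16.9, with its summit 17 bp outside the gene. AGO1, the main microRNA effector, scored 12.9 and the export factor HST 11.9, while HEN1, which methylates microRNAs, scored 8.48. Genes of these lists were up to 10300 bp long (PKL), and over all protein-coding genes 33.4% of the shortest length decile and 83.0% of the longest had a summit.

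Downstream of SPL proteins stand the genes for miR172 and their targets. Of the 5 genes for miR172, 1 had a summit, MIR172E (5.82, 87 bp away), against 29.8% of microRNA genes. MIR172A, MIR172B, MIR172C and MIR172D had none. MIR172B, a known target of SPL9, had its nearest summit 7838 bp away. All 6 of the AP2-like repressor genes that miR172 targets had a summit, against 65.4% of protein-coding genes and 72.9% to 79.3% in the length deciles of these genes, at mostly low scores. SMZ was high (78.5), with its summit 430 bp outside the gene. TOE3 (8.77 outside, 6.58 inside), SNZ (5.10, 798 bp outside), TOE2 (4.64, 295 bp outside), TOE1 (4.20) and AP2 (2.81) were all below the nuclear median. Inside the gene 3 of the 6 had a summit (TOE3, TOE1 and AP2), against 47.7% of all protein-coding genes. Of 7 floral genes downstream of SPL proteins, 3 had a summit, against 65.4% of protein-coding genes, and their scores were low. FD, which encodes the partner of the mobile flowering signal, scored 4.42. The others were the meristem identity gene LFY (3.99) and the integrator SOC1 (2.81, with its summit 177 bp outside). AGL42, FUL, AP1 and FT had none.

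**Figure D4:**
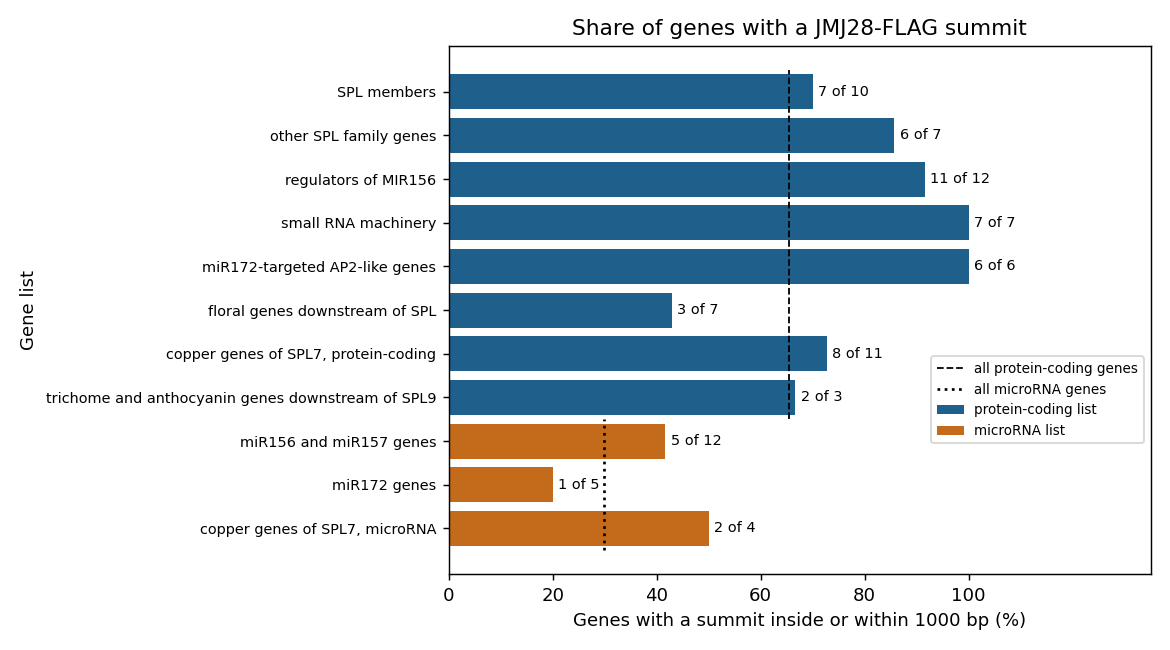
Percentage of genes with a summit inside or within 1000 bp (horizontal axis) for the SPL genes and each list of the pathway, with counts beside the bars; blue bars are protein-coding lists and orange bars microRNA lists, and the lines mark all protein-coding genes (65.4%, dashed) and all microRNA genes (29.8%, dotted). The 10 SPL genes sit close to the dashed line, and the floral genes lie below it.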

How the data were processed

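The submitters' processing notes name Bowtie2 for alignment, MACS2 for peak calling and the TAIR10 build. Their versions, the threshold for a peak, any pooling of libraries and the role of the input were not given in the sources used here. In the file as deposited are 18410 summits of 1 bp, each with a score that has the layout of a MACS2 summit list, the −log10 of a p-value or q-value (lowest 1.37). Depth is unknown. Genes came from an NCBI table of TAIR10.1, which has no strand or exons. As a check of coordinates, 53.2% of nuclear summits lay at most 300 bp from an end of a protein-coding gene, against 22.1% to 28.0% after shifts of 1000 to 5000 bp in either direction.

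Members were matched by symbol or synonym together with locus. The symbols SPL1 and SPL2 also name AT1G59560 and AT1G54150, of the unrelated SP1-like family, which were left out. Of 84 list entries 81 carried the listed name in the table, and SPL16, BMI1B and CITF1 were matched by locus. Members and lists were chosen with earlier results of these data known. All members and family genes are named, and of each other list every gene, with values for up to 6 with the highest scores (more where the list was short). Counts and medians are given beside those of all protein-coding or microRNA genes, and no test was made. No sequence is shown. The assignment was tested on simulated data. Python 3.11.15, numpy 2.4.6, pandas 2.3.3 and matplotlib 3.10.9 were used.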

Additional observations from a re-analysis of the deposited data

How the results depend on the processing

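Among the 10 SPL genes, 5 to 7 had a summit under all settings tried except the upper 25% of scores, where 2 had one. Counting inside the gene only (47.7% of all protein-coding genes), or for the nearest gene only (51.3%), 6 were counted, without SPL5. The median best score was 12.1 in both cases, against 12.9. With the upper 50% of scores the SPL summits numbered 6, of which 4 were inside. With the upper 25% they numbered 2, of which 1 was inside. At that setting 0 of the other 7 family genes had one, against 25.4% of all protein-coding genes. Of the 67 other pathway genes 45 had a summit. These were 37 of 46 protein-coding genes, against 65.4% of all such genes, and 8 of 21 microRNA genes, against 29.8%. Most of the 46 were longer than the median protein-coding gene (2078 bp), and in their length deciles the share was 44.3% to 83.0%. The part of gene length in this difference was not tested. Inside the gene only, the count was 26. Every one of these was protein-coding, so it was 26 of 46 for that kind (background 47.7%) and 0 of 21 for microRNA genes. Over both kinds together the count was 22 with the upper 50% and 10 with the upper 25% of scores, not split by kind. The protein-coding background at these score limits was 43.8% and 25.4%. The microRNA background was not computed at any of these settings. With the upper 50% of scores 4 of the other 7 family genes had a summit, against 6 with every summit. The share of all protein-coding genes was 43.8% with the upper 50% and 65.4% with every summit. Other settings moved each count by at most 1.5 times. No paired analysis was possible because the only values are a single summit list, and leaving out a replicate was not possible for the same reason. Scores grow with sequencing depth, which is unknown, so a gene without a summit had none that passed the authors' threshold and may hold weaker signal.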

Other observations

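Copper genes stand downstream of SPL7, and not all of those listed here are its direct targets. Of 11 protein-coding copper genes 8 had a summit (72.7%), against 65.4% of all protein-coding genes. The copper importer gene COPT1 had the highest score (28.4, with its summit 408 bp outside). Next were the iron superoxide dismutase gene FSD1 (12.6), the copper chaperone gene CCS (11.9) and the metal transporter gene YSL2 (10.9, 77 bp outside). CITF1 (10.3), which encodes a bHLH factor, and the copper/zinc superoxide dismutase gene CSD2 (6.84) followed. CSD1 and COPT6 also had one. The copper importer gene COPT2 and the reductase genes FRO4 and FRO5 had none. Of 4 copper-responsive microRNA genes, MIR408 (19.2, 749 bp away) and MIR398C (15.4, 666 bp away) had a summit, against 29.8% of all microRNA genes, and MIR397A and MIR398B had none; the nearest to MIR398B was 1179 bp away and scored 42.1.

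Of 3 genes through which SPL9 acts on trichomes and anthocyanin, DFR and TCL1 had a summit (66.7%, against 65.4% of all protein-coding genes), both outside the gene and with low scores (2.81 and 2.29), and TRY had none.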
